A study of Mus musculus with 2 samples.

Results

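The actin isoforms are the 6 mouse genes that encode the conventional actins: Acta1, Acta2, Actg2, Actc1, Actb and Actg1. They were followed through all non-control probes that carry one of these names on the arrays, which gave 10 of 39429 probes and 6 of 28312 gene or transcript names. Acta1, Acta2, Actg2, Actc1 and Actb had 1 probe each, and Actg1 had 5. The samples were ureters dissected at E14.5 (a stage in embryonic days) from NMRI mouse embryos, compared on 2 two-colour Agilent arrays. The tested embryos, labelled Smad4cKO (UM), were Tbx18(cre/+);Smad4(fl/fl), and the control embryos were Tbx18(+/+);Smad4(fl/+). Smad4 is the shared partner of the SMAD proteins that carry BMP and TGFB signals, and Tbx18 is active in the mesenchyme that surrounds the ureter, so Cre made from that locus removes Smad4 there. Controls carry a floxed Smad4 allele too but no Cre allele, so effects of Smad4 loss and of the Tbx18 Cre allele cannot be told apart. Array 1 held a female pair with the labelled Smad4cKO RNA in green and the labelled control RNA in red. Array 2 held a male pair with the dyes exchanged. Dye orientation and sex of the pair therefore changed together and cannot be told apart. Neither the number of embryos behind an RNA nor the litters of the pairs are in the labels, so the spread between the 2 arrays may be technical. The errors printed are limma's moderated SEs, which also rest on the spread pooled over all probes.

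Actins are the building blocks of thin filaments. The cytoplasmic isoforms Actb and Actg1 form the cytoskeleton of nearly every cell. The muscle isoforms are built into the contractile apparatus, with Acta2 the main form of vascular smooth muscle, Actg2 that of enteric and other visceral smooth muscle, Acta1 that of skeletal muscle and Actc1 that of the heart. Developing muscle commonly makes more than one muscle isoform before the adult pattern is reached. Muscle actin genes are textbook targets of serum response factor (Srf), which binds the CArG box, together with the coactivator myocardin (Myocd) or the related Mrtfa and Mrtfb. Visceral smooth muscle forms around the embryonic ureter from its mesenchyme, and its contractile genes are switched on before birth.

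The probes may read the isoforms separately to different degrees, and their sequences are shown because they bear on which values stand for 1 gene. Positions follow build mm9, as given with the probes, and all 10 probes are on the minus strand. The exon or UTR each probe lies in was not analysed here. For 6 of the probes the first 30 of 60 bases are printed. The 4 muscle probes shared no run of 16 bases with any other probe on the array, in either orientation. The Actb probe shared such a run with 1 probe, named Rnf145. Probes were compared with other probes only, and not with the transcripts of the other isoforms. RNA of another isoform may therefore add to a signal, which was not tested.
Acta1, chr8:126416197-126416256: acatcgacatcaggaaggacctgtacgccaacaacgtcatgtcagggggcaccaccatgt
Acta2, chr19:34316060-34316119: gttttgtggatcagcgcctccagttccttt
Actg2, chr6:83462904-83462963: tctggggatccccacaagactgctgtcacc
Actc1, chr2:113873064-113873123: ctctcatcagtcattgtacagtttgtttac
Actb, chr5:143665422-143665481: tctaggcggactgttactgagctgcgtttt

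The Actg1 probes are numbered along the transcript. Probes 1 and 2 overlap by 22 identical bases, and probes 2 and 3 overlap by 50 bases with 4 mismatches, which are in capitals.
Actg1 probe 1, chr11:120208409-120208468: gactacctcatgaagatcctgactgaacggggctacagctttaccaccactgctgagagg
Actg1 probe 2, chr11:120208371-120208430: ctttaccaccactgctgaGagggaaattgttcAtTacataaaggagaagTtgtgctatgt
Actg1 probe 3, chr11:120208361-120208420: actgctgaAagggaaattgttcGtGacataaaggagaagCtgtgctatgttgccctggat
Actg1 probe 4, chr11:120206997-120207056: aggccccagcaacacgacattgtgtaaaga
Actg1 probe 5, chr11:120206967-120206984: gggaacgtttgcatcgacacctgtaaatgt
Probe 4 matched a probe named Gm16385 over 58 bases with 8 mismatches. Probe 5 matched a probe named Actg-ps1, an Actg1 pseudogene, over 58 bases with 3 mismatches, and only 18 of its bases are placed at the listed position. The 5 Actg1 probes therefore share target sequence with each other or with near-identical copies and are not 5 independent measurements, and their signal may include RNA of those copies.

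All 10 probes were well above background in all 4 channels, and 0 spots on either array were saturated. Across the whole array, 67.4% to 69.5% of probes were well above background per channel, with a median signal of 7.79 to 9.45 times the background. Signals below are the processed signals deposited by the authors, an intensity in which background and dye have been adjusted. Signals of different probes are not compared, since probes differ in hybridization. Log2 ratios are labelled Smad4cKO over labelled control after a separate normalization, so that a value of 1 is a 2-fold brighter labelled Smad4cKO channel. Going by the dyes, the authors' deposited table of signed folds runs the other way, labelled control over labelled Smad4cKO, while the sample titles name Smad4cKO first. It gives -2.01 and -4.56 for Acta2 on arrays 1 and 2. If the channel labels were exchanged, every direction given here would turn round. Both Smad4 probes were dimmer in the labelled Smad4cKO channel on both arrays, 1 at -0.31 and -0.49 (mean -0.40, limma SE 0.14) and the other at -0.69 and -0.14 (mean -0.42, SE 0.17). The Tbx18 probe gave 0.07 and 0.81 (mean 0.44, SE 0.20, n = 2 arrays each). The Smad4 and Tbx18 probes had limma p-values, adjusted over all tested probes, between 0.755 and 1.000. Whether the Smad4 probes lie in the deleted part of the gene was not analysed here.

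**Figure D1:**
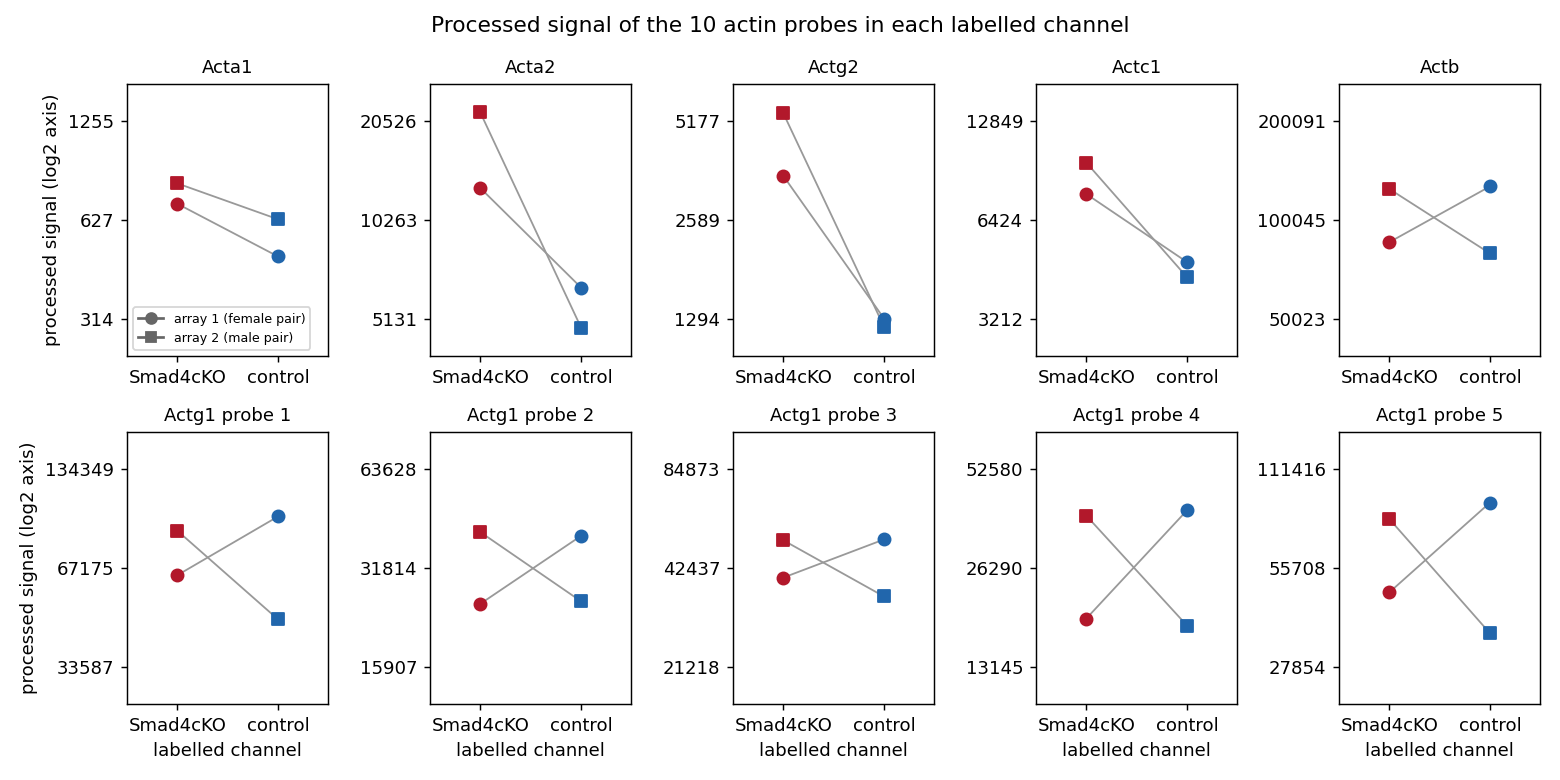
Processed signal (log2 axis) of each of the 10 actin probes in the labelled Smad4cKO channel (left, red) and the labelled control channel (right, blue); circles are array 1, squares are array 2, and a line joins the channels of an array. In the 4 muscle actin panels both lines run the same way, whereas in the Actb and Actg1 panels they cross.

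The 4 muscle isoforms were brighter in the labelled Smad4cKO channel on both arrays, and each of the 6 cytoplasmic probes was brighter in it on array 2 only. Of all 26670 probes tested, 20% were brighter in that channel on both arrays, at any size. Over genes with 1 probe each, 60.3% had opposite signs on the 2 arrays. Across arrays the ratios of Acta2, Actg2 and Actc1 averaged 3.0-, 3.37- and 1.90-fold, and that of Acta1 1.33-fold. The 5 Actg1 probes and Actb averaged between 1.01- and 1.12-fold. At 1.5-fold or more on each array and in 1 direction, Acta2, Actg2 and Actc1 passed, 3 of 10 actin probes, all of them brighter; over all 26670 probes tested 0.454% were brighter and 0.51% dimmer by that rule. Limma with Benjamini-Hochberg adjustment over all 26670 probes called 0 of the 10 at 0.05, and it called 0 probes brighter and 2 dimmer (0.0075%) in the whole table. At an unadjusted limma p under 0.05, 4 of the 10 were brighter, the 4 muscle probes, against 2.09% of all tested probes. Run on the software's processed signals, the same test called Acta2, Actg2 and Actc1, with adjusted p-values of 0.0127, 0.00191 and 0.038. In that setting it called 147 of the 26670 probes brighter and 163 dimmer, so calls were more common throughout. With median centring in place of loess the adjusted p of each was 1.000. In whole-tissue RNA a change in the number of cells of a type and a change in RNA per cell cannot be told apart.

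**Figure D2:**
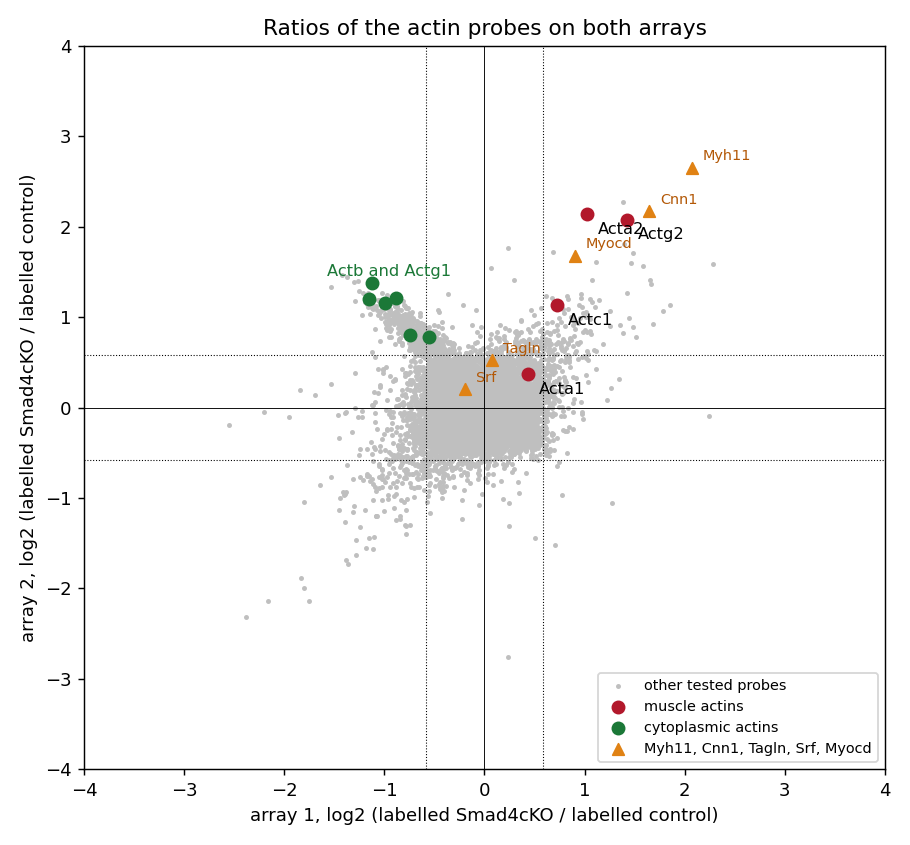
Log2 ratio (labelled Smad4cKO over labelled control) of each tested probe on array 1 (horizontal) and array 2 (vertical), with muscle actins in red, cytoplasmic actins in green and 5 smooth muscle or Srf-pathway genes as orange triangles; dotted lines mark 1.5-fold. Acta2, Actg2 and Actc1 lie in the upper right, beyond the dotted lines, Acta1 inside them, and Actb and Actg1 in the upper left.

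Actg2, the visceral smooth muscle isoform, had the highest mean ratio of the family. Its signals were 3529 and 5476 in the labelled Smad4cKO channels of arrays 1 and 2, against 1296 and 1224 in the labelled control channels. The labelled control signals differed little between arrays. The log2 ratios were 1.42 on array 1 and 2.08 on array 2, with a mean of 1.75 (limma SE 0.19, n = 2 arrays, adjusted p = 0.0981). By the smaller of its ratios on the 2 arrays it stood 7th from the brightest among the 26670 tested probes. Leaving out either array leaves a single ratio with no test, and both were above 2-fold. Under 4 of 11 alternative settings the limma adjusted p fell below 0.05. Among them were the authors' deposited table (0.0131) and a smaller normexp offset of 10 (0.0179). In the whole table these settings called 68 and 36 probes brighter. With median centring in place of loess the adjusted p was 1.000.

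Acta2, the vascular smooth muscle isoform and a common marker of the differentiating ureteric coat, was printed as 10 spots on each array, so its precision within an array can be seen. Its mean signals were 12843 and 21825 in the labelled Smad4cKO channels of arrays 1 and 2, against 6387 and 4826 in the labelled control channels. The labelled Smad4cKO channel was the brighter one on both arrays, as it was by log2 ratio for 20% of all tested probes. The 9 spots used on array 1 gave log2 ratios between 0.97 and 1.08 (median 1.03, SD 0.04), and the 9 used on array 2 gave ratios between 2.11 and 2.19 (median 2.13, SD 0.03). The arrays differed by 1.12, far more than the spots within either of them. The spots share 1 RNA pair per array and are not replicates, and 1 outlier spot per array, at 0.92 on array 1 and 2.24 on array 2, was left out. The mean over arrays was 1.59 (limma SE 0.26, n = 2, adjusted p = 0.18), and the probe stood 22nd from the brightest by its smaller ratio.

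**Figure D3:**
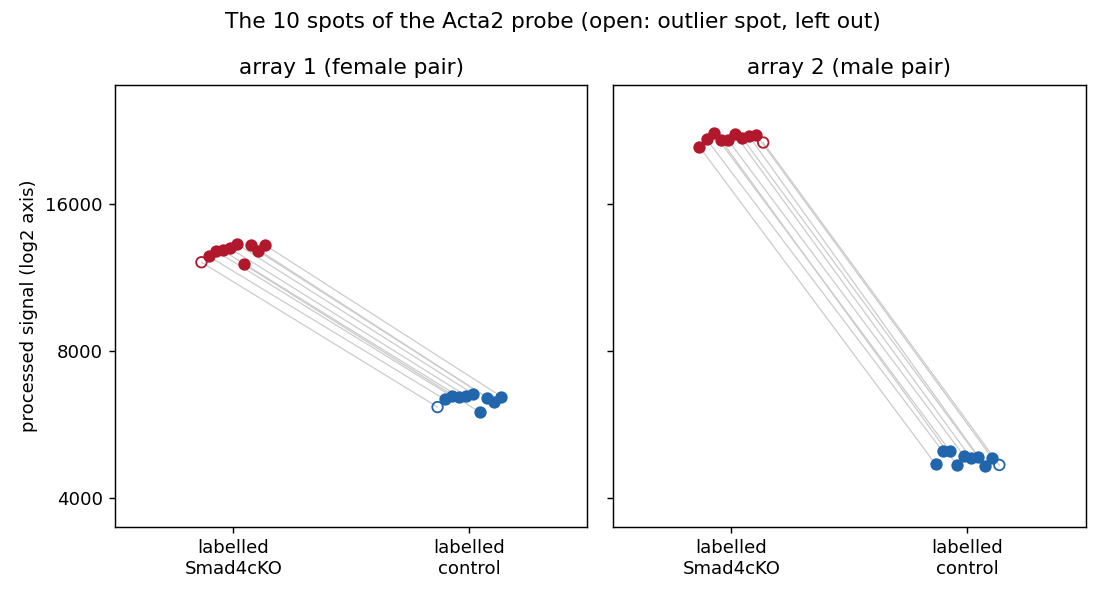
Processed signal (log2 axis) of the 10 spots of the Acta2 probe on array 1 and array 2, in the labelled Smad4cKO channel (left, red) and the labelled control channel (right, blue); lines join the channels of a spot and open circles are the spot left out on each array. The spots of an array cluster tightly, and the drop to the labelled control channel is steeper on array 2.

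Actc1, the cardiac isoform, had signals of 7706 and 9606 in the labelled Smad4cKO channels, against 4778 and 4297 in the labelled control channels. Again the labelled Smad4cKO channel was the brighter one on both arrays. The log2 ratios were 0.73 on array 1 and 1.13 on array 2, with a mean of 0.93 (limma SE 0.15, n = 2, adjusted p = 0.18), and it stood 71st from the brightest. With median centring in place of loess it fell short of 1.5-fold on array 1.

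Acta1, the skeletal isoform, had signals of 703 and 811 in the labelled Smad4cKO channels, against 485 and 630 in the labelled control channels. The labelled Smad4cKO channel was the brighter one on both arrays, by a smaller margin than for the other muscle isoforms. Its log2 ratios of 0.44 on array 1 and 0.38 on array 2 differed by -0.06 between arrays (mean 0.41, limma SE 0.13, n = 2, adjusted p = 0.693). Neither ratio reached 1.5-fold.

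The order of the muscle isoforms by ratio was only partly the same on the arrays. Acta2 was 0.40 below Actg2 on array 1 and 0.06 above it on array 2, so these neighbours did not hold an order. Each of them exceeded Actc1 on both arrays, Acta2 by 0.30 and 1.01 and Actg2 by 0.70 and 0.95. Actc1 exceeded Acta1 by 0.29 on array 1 and 0.76 on array 2. These differences are descriptions from 2 arrays, with no test.

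Actb, the main cytoplasmic isoform, had signals of 85567 and 124326 in the labelled Smad4cKO channels of arrays 1 and 2, against 126600 and 79061 in the labelled control channels. The labelled groups overlapped: the labelled Smad4cKO channel was the dimmer one on array 1 and the brighter one on array 2. Its log2 ratios were -0.996 and 1.16, with a mean of 0.08 (limma SE 0.46, n = 2, adjusted p = 1.000). In both cases the red channel was the brighter one.

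Actg1, the other cytoplasmic isoform, behaved alike at all 5 probes. Probe 1 had signals of 63813 and 87289 in the labelled Smad4cKO channels, against 96362 and 46828 in the labelled control channels. The groups overlapped, and the log2 ratios were -0.89 and 1.21 (mean 0.16, limma SE 0.45, n = 2, adjusted p = 1.000). Probe 5, which resembles the Actg-ps1 probe, had the widest gap between arrays, with -1.13 on array 1 and 1.38 on array 2. Probe 4 gave -1.15 and 1.20, and probe 2 gave -0.74 and 0.80. Probe 3, which overlaps probe 2 with 4 mismatches, had the smallest ratios, -0.56 and 0.78, and was the single cytoplasmic probe short of 1.5-fold on an array.
Together 5 of the 6 cytoplasmic probes passed 1.5-fold on both arrays in opposite directions, against 1.33% of all tested probes. Their means of 0.02 to 0.16 lay inside limma SEs of 0.30 to 0.53. With errors of that size a difference in Actb or Actg1 between the labelled groups was not detectable on these arrays, which is not evidence that there is none.

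Turned to red over green, all 6 cytoplasmic probes had the red channel brighter on both arrays, by 0.56 to 1.15 on array 1 and 0.78 to 1.38 on array 2 (log2). Of all 26670 tested probes, 1.31% were at least 1.5-fold brighter in red on both arrays. Among the 1433 tested probes at least as bright as the dimmest cytoplasmic actin probe, 939 (65.5%) were brighter in red than in green on each array and 293 (20.4%) at 1.5-fold. Among the 756 tested probes with a mean log2 intensity of at least 16, the median red over green was 0.29 on array 1 and 0.44 on array 2. The medians lay between -0.07 and 0.07 in each range of intensity below that. Actg1 probes 2 and 4 fall in the range from 15 to 16, with medians of 0.05 on array 1 and 0.07 on array 2. In that range red exceeded green on each array for 50.6% of the 1498 tested probes, and by at least 1.5-fold for 10.8%. In the ranges below 15 these shares were 25.7% to 28.9% and at most 0.131%. Among the 6 probes the size of the red excess did not follow their intensity: its mean over both arrays was 1.08 for Actb and 1.18 for Actg1 probe 4, at mean log2 intensities of 17.1 and 15.5. The muscle actin probes had mean log2 intensities of 10.1 to 13.9, against 15.5 to 17.1 for the cytoplasmic ones. For Acta2, whose array 2 ratio was larger, the mean of red over green across both arrays was 0.56, and for Actg2, Actc1 and Acta1 it was 0.33, 0.20 and -0.03. That mean holds any dye bias and any difference between the sex pairs together.

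**Figure D4:**
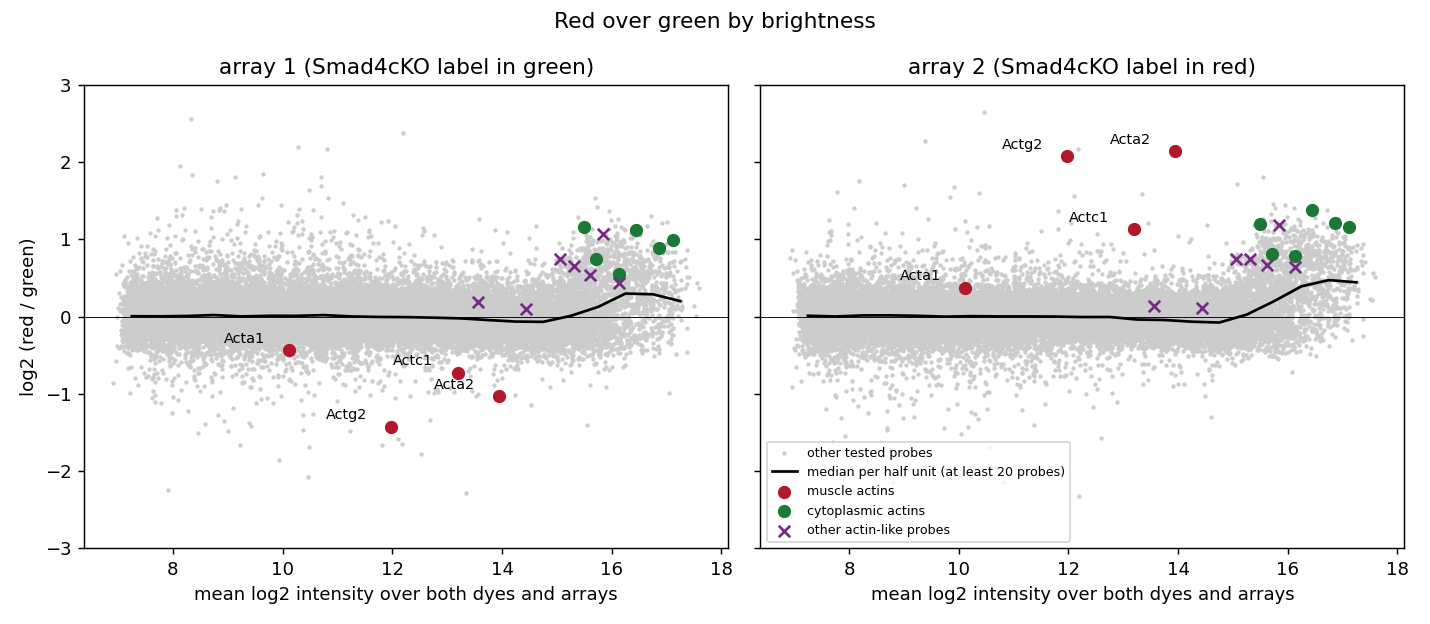
Log2 of red over green against mean log2 intensity for all tested probes (grey) on array 1 (labelled Smad4cKO in green) and array 2 (labelled Smad4cKO in red); the black line is the median per range of intensity, and actin probes are marked. The cytoplasmic actins (green points) lie among the brightest probes, above 0 on both arrays, while the muscle actins (red points) are below 0 on array 1 and above 0 on array 2.

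Other actin-like sequences were compared with the cytoplasmic isoforms, since such copies may share signal with them. The array held 8 probes under 7 such names: Actg-ps1, Gm16385, Gm12003, LOC633219, Gm4750, Gm5388 and Actbl2. Actbl2, a beta-actin-like gene, was not well above background in any channel. The remaining 7 probes were all brighter in red on both arrays, by 0.09 to 1.06 on array 1 and 0.11 to 1.19 on array 2. Of all tested probes, 30% were brighter in red on both arrays, at any size. The share depends on brightness, and was 65.5% among the 1433 tested probes at least as bright as the dimmest cytoplasmic actin probe. The mean ratios of labelled Smad4cKO over labelled control for these 7 actin-like probes lay between -0.02 and 0.10. Gm16385, which shares sequence with Actg1 probe 4, gave -1.06 and 1.19, close to the -1.15 and 1.20 of that probe.

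Upstream sequence was examined because the 4 muscle isoforms had ratios in the same direction. RefSeq promoter sequences (GRCm38.p6) were matched for 4 of the 6 members, Acta1, Acta2, Actc1 and Actg1; Actb and Actg2 are named only. The 250 bases before each RefSeq gene start were searched for the CArG box, a palindromic consensus of 10 bases that reads the same on both strands, and for boxes with 1 of their 6 inner bases off. Matches are in capitals, and positions are counted back from the gene start.
Acta1, chr8:123894829-123894990, minus strand: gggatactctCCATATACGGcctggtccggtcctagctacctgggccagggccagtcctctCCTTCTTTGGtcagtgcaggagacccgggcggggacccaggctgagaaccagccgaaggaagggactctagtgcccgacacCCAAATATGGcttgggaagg
Acta2, chr19:34255388-34255467, minus strand: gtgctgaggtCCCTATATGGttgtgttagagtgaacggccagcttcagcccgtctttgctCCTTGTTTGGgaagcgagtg
Actc1, chr2:114052903-114053060, minus strand: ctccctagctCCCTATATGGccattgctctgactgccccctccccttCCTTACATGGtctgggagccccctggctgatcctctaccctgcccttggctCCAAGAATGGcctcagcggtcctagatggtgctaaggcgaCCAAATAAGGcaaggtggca
Actg1, chr11:120348566-120348595, minus strand: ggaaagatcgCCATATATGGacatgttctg
The exact consensus occurred in Acta1 (starting at -73), Actc1 (at -47) and Actg1 (at -90). Acta2 held 2 boxes with 1 base off, at -84 and -34, and no exact one. Of 32851 promoters in the table, 1.47% held an exact box and 8.59% an exact box or one with 1 base off. All 4 searched members thus held a box, exact or with 1 base off, both those that passed 1.5-fold (Acta2 and Actc1) and those that did not (Acta1 and Actg1). These matches are letters in a window and not measured binding.

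The Srf pathway was read from the same arrays. Srf itself gave log2 ratios of -0.20 and 0.20 (mean 0.00, limma SE 0.15, n = 2, adjusted p = 1.000), and Mrtfa and Mrtfb also had opposite signs on the 2 arrays. Myocd, the coactivator restricted to cardiac and smooth muscle, had signals of 671 and 1161 in the labelled Smad4cKO channels, against 319 and 328 in the labelled control channels. It was the single gene of the 4 brighter on both arrays, by 0.90 and 1.68, past 1.5-fold (mean 1.29, limma SE 0.21, n = 2, adjusted p = 0.168).

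Contractile partners of actin were followed in a list of 15 genes, 14 of them tested. Of these, 7 were brighter in the labelled Smad4cKO channel on both arrays, 1 was dimmer on both and 6 had opposite signs, with a list median of 0.18. Over 21273 genes with 1 probe each, 19.9% were brighter on both arrays, 19.8% dimmer on both and 60.3% opposite, with a median of 0.00. At 1.5-fold on both arrays 4 of the 14 were brighter and 0 dimmer, against 0.489% and 0.522% of all genes. Myh11, a myosin heavy chain of smooth muscle that pulls on actin filaments, had signals of 1598 and 2751 in the labelled Smad4cKO channels, against 343 and 380 in the labelled control channels. Its log2 ratios were 2.08 and 2.65 (mean 2.37, limma SE 0.18, n = 2, adjusted p = 0.0538). Cnn1, calponin, which binds actin and tropomyosin, gave 1.65 and 2.17 (adjusted p = 0.0727). Mylk, the kinase that switches on smooth muscle myosin, gave 0.87 and 1.00, and Des, the muscle intermediate filament desmin, gave 0.71 and 0.71. Tagln, another actin-binding smooth muscle marker, had smaller ratios, with 0.07 and 0.53, and Smtn gave 0.20 and 0.12. Synpo2, the gene dimmer on both arrays, gave -0.91 and -0.05. The 6 with opposite signs were Myl9, Myl6, Tpm1, Cald1, Flna and Vcl. The list was chosen with earlier results of these data known, which limits the comparison with all genes. Limma called 0 of the 14 after adjustment (0% brighter and 0.0047% dimmer over all genes), and 4 had an unadjusted p under 0.05, all 4 brighter, against 2.15% of all genes brighter and 2.99% dimmer.

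Of the 5 lists of genes that build, cap, anchor and recycle filaments, some of them muscle genes, none had a member past 1.5-fold on each array in 1 direction. Over all genes 0.489% were brighter and 0.522% dimmer by that rule. At those shares few or none of 96 genes would pass, so the count does not set these lists apart. The list medians, over members that went both ways, were 0.04 over 11 tested actin-related proteins, 0.06 over 20 genes of monomer binding and filament turnover, 0.01 over 33 genes of nucleation, elongation and capping, 0.02 over 15 crosslinkers and anchors, and -0.02 over 17 genes of actin folding and modification. The members with the largest same-direction ratios included Actn3 (0.86 and 0.45), an alpha-actinin of fast skeletal fibres, and Scin (0.51 and 0.31), a filament-severing protein. Synpo, an actin-bundling protein, gave -0.73 and -0.24, and Actn2, the alpha-actinin of heart and skeletal muscle, gave -0.56 and -0.39. Tmod2, a filament-capping tropomodulin, gave -0.56 and -0.25, and Pfdn2, a subunit of the prefoldin chaperone, gave -0.53 and -0.42. Limma called 0 of the 96 tested genes of these lists after adjustment, with 2 brighter and 4 dimmer at an unadjusted p under 0.05, against 2.15% and 2.99% of all genes. Of the 19 actin-related genes 8 were not well above background in any channel.

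**Figure D5:**
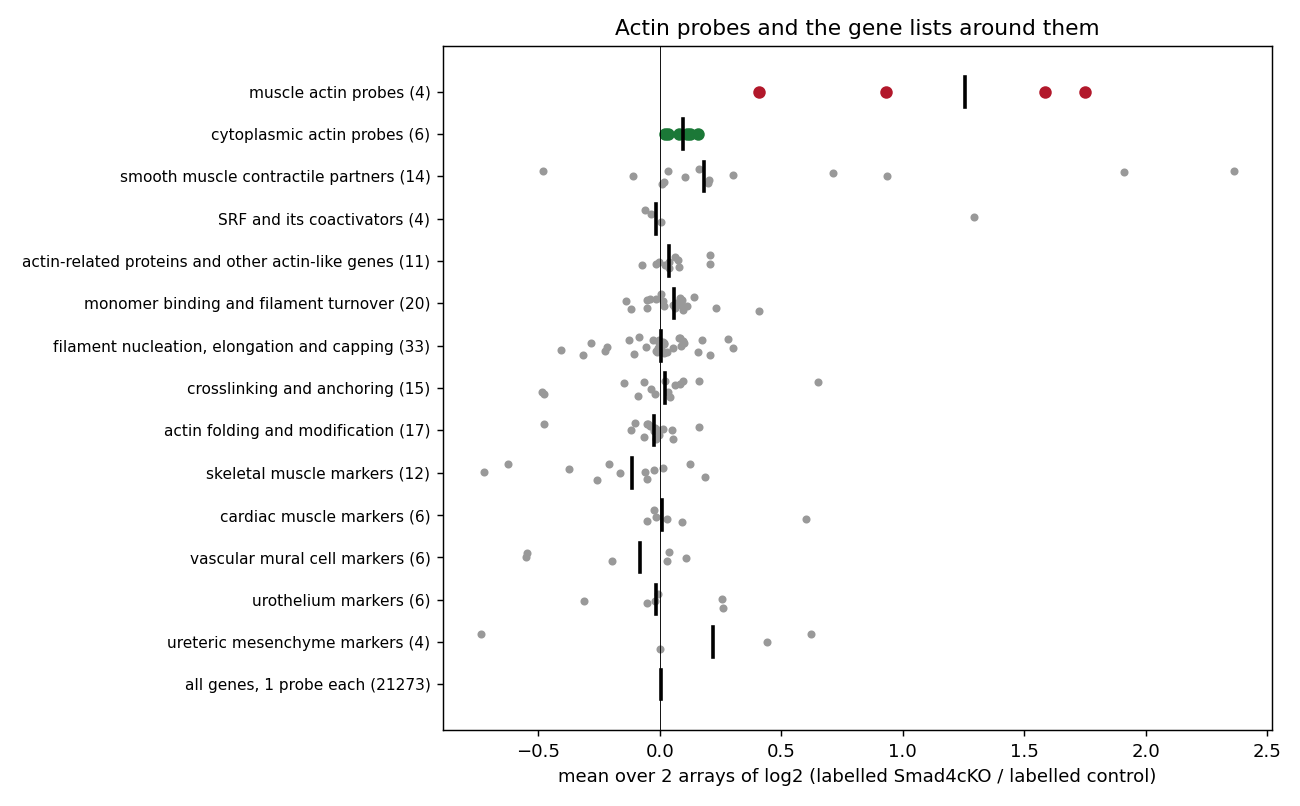
Mean over 2 arrays of the log2 ratio (labelled Smad4cKO over labelled control) for the muscle actin probes (red), the cytoplasmic actin probes (green) and the genes of each list (grey), with the number of probes or genes tested in brackets; black bars are medians, and for all genes only the median is drawn. The muscle actin probes extend from 0.41 to 1.75, while most list medians lie near 0.

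Markers of other tissues were read beside the muscle isoforms, because Acta1, Actc1 and Acta2 are also made by skeletal, cardiac and vascular muscle. Of 15 skeletal muscle markers 12 were tested, and their summed signal was 2812 and 2647 in the labelled Smad4cKO channels of arrays 1 and 2, against 2911 and 3710 in the labelled control channels. Of these, 2 were brighter on both arrays, 6 dimmer and 4 opposite, with a median of -0.11, against 19.9%, 19.8% and 60.3% of all genes. Myog, which drives skeletal muscle differentiation, gave -0.80 and -0.45, and Myh3, the embryonic skeletal myosin, gave -0.71 and -0.73. Myf5 and Ckm were not well above background in any channel. The 6 tested of 7 cardiac markers summed to 766 and 951 in the labelled Smad4cKO channels, against 697 and 796 in the labelled control channels (median 0.01). Tnnt2, cardiac troponin T, stood apart at 0.44 and 0.76.
The 6 vascular mural cell markers summed to 17070 and 20248 in the labelled Smad4cKO channels, against 18982 and 19774 in the labelled control channels. Rgs5 (-0.43 and -0.67) and Kcnj8 (-0.53 and -0.57), which mark pericytes, were dimmer on both arrays, as was Abcc9 (-0.13 and -0.26). Pdgfrb was brighter on both (0.01 and 0.21), the other 2 had opposite signs, and the list's median was -0.08. The 6 urothelium markers had a median of -0.01 and sums of 14973 and 17182 in the labelled Smad4cKO channels, against 14438 and 18960 in the labelled control channels. The 4 ureteric mesenchyme markers had a median of 0.22 and did not move one way, with Tcf21 at 0.92 and 0.33 and Bmp4 at -1.04 and -0.43. Their sums were 84338 and 91486 in the labelled Smad4cKO channels, against 80788 and 107342 in the labelled control channels. The part of other tissues in the actin ratios was not tested beyond these values.

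For each isoform past 1.5-fold, the genes with the nearest pair of ratios were looked up among 17010 tested genes with a symbol, by the straight-line distance between pairs over the 2 arrays. Acta2 lay nearest to Fbxl22 (0.38), Actg2 (0.40) and Myocd (0.48). Actg2 lay nearest to Fbxl22 (0.20), Cnn1 (0.24) and Car3 (0.28). Actc1 lay nearest to Alpl (0.05), Itln1 (0.07) and Lrat (0.10). Fbxl22, an F-box protein known from striated muscle, gave 1.38 and 2.28. A pair of values per gene leaves many genes near Actc1, whose ratios were smaller, so these distances describe the 2 arrays alone.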

How the data were processed

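The submitters' processing notes name Agilent Feature Extraction 10.7.3.1. Its deposited output lists, for every spot, an intensity in each channel, and the log10 ratio of red over green with its p-value, which were not tested here. The authors' deposited table holds a signed fold, treated as a score, and no source used here gives how it was made. Its column medians are 1, and its direction was found by setting it against the processed signals.

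Background was removed from the mean signals by normexp (offset 50) and dye by loess, with the 1377 control spots at weight 0 (limma 3.58.1, R 4.3.3). Outlier spots were left out (237 on array 1, 221 on array 2), and spots were averaged per probe. Probes entered the test if 1 labelled group exceeded background clearly on each array (26670 of 39429). Log2 ratios were tested against 0 with limma (1 residual and 5.04 prior degrees of freedom, Benjamini-Hochberg, 0.05), checked on simulated data. The SE is limma's moderated one, which rests mostly on all probes. The rule of 1.5-fold on both arrays has no p-value. Accessions of 26412 probes were matched to RefSeq symbols. In lists, a gene was read from its brightest tested probe.

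Every actin probe is described or counted. Up to 5 genes per list, those with the largest smaller ratio among genes of the same sign, were named, with Myh11, Cnn1, Tagln, Srf and Myocd in any case. Among the contractile partners, the gene dimmer on both arrays and those of opposite sign were named too. Members and lists were chosen with earlier results of these data known. Both arrays share 1 slide and 1 scan. Tables were read with Python 3.11.15 and pandas 2.3.3.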

Additional observations from a re-analysis of the deposited data

Results flagged for a closer look

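At 6 of the 10 actin probes the array of the female pair and the array of the male pair went opposite ways, the labelled Smad4cKO channel being dimmer on array 1 and brighter on array 2. Opposite signs were common, at 60.3% of all genes with 1 probe each. Past 1.5-fold in opposite directions were 5 of the 6, against 1.33% of all tested probes. That share depends on brightness. Among the 1433 tested probes at least as bright as the dimmest of the 6, 20.4% were at least 1.5-fold brighter in red on both arrays. The Actg1 probes are also not independent measurements. The log2 ratio on array 2 exceeded that on array 1 by 2.15 for Actb. For Actg1 probes 1 to 5 it did so by 2.10, 1.55, 1.34, 2.35 and 2.50. The difference was not tested, because each sex is 1 array, and sex and dye orientation cannot be told apart. All 6 probes were brighter in red on both arrays.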

How the results depend on the processing

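The mean ratio of all 10 actin probes kept its sign under the 11 alternatives that keep both arrays. Actg1 probes 2 to 5 had 9 of these, since the settings with 1 value per gene do not hold them. Settings that change only the filter, the choice of probe or the prior cannot move the mean of a gene with 1 probe. That part of the agreement was fixed in advance. The direction of the authors' deposited table was set by its match to the processed signals over all probes. Its agreement in sign was thus largely fixed too. The cytoplasmic probes had opposite signs on the 2 arrays, so the sign of their mean gives no direction. Means spanned 0.40 to 0.46 for Acta1, 1.59 to 1.60 for Acta2, 1.75 to 1.81 for Actg2 and 0.925 to 0.934 for Actc1, and the cytoplasmic probes stayed between 0.00 and 0.16. Calls by limma were gained in 3 cases on the processed signals (Acta2 1.59, Actg2 1.80, Actc1 0.93), in 3 with an intensity trend and robust prior (Acta2 1.59, Actg2 1.75, Actc1 0.93), and for Actg2 on the authors' deposited values (1.81) and with offset 10 (1.77). The adjusted p ranged up to 1.000 for each of the 3, with median centring. Limma's whole-table counts, brighter then dimmer, were 147 and 163 on processed signals, 68 and 69 on deposited values, 36 and 36 with offset 10, 1 and 5 without background subtraction, 1 and 5 with both channels above background, 337 and 456 with trend and robust prior, 0 and 0 with median centring, with the brightest probe and with averaged probes, and 4 dimmer with no filter. Probes past 1.5-fold were 218 brighter and 248 dimmer on processed signals, and 207 and 226 on deposited values. The number in opposite directions was 1739 with median centring. Of the actins, 3 passed brighter under each alternative except median centring, with 2 (Actc1 missed the threshold on array 1). The number in opposite directions was 2 with 1 value per gene. The cause of these shifts was not tested, apart from fewer values with 1 per gene.

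With a single array there is no test. Without replicate 1 and without replicate 2 the values were 0.38 and 0.44 for Acta1, 2.14 and 1.03 for Acta2, 2.08 and 1.42 for Actg2, 1.13 and 0.73 for Actc1, 1.16 and -0.996 for Actb and 1.21 and -0.89 for Actg1 probe 1. Actin probes past 1.5-fold were 9 brighter and 0 dimmer without replicate 1, and 3 brighter and 5 dimmer without replicate 2. Whole-table counts were 791 and 302 brighter, and 280 and 869 dimmer. No paired analysis was possible because each array is itself a pair and there is 1 group of ratios. Having 2 arrays limits the precision of every value.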
